A study of Drosophila melanogaster with 18 samples.

Results

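The cullin-RING ubiquitin ligases were followed through 10 genes in fly ovaries: the cullin genes Cul1, Cul2, Cul3, Cul4, Cul5 and Cul6, the RING-finger genes Roc1a, Roc1b and Roc2, and the adaptor gene SkpA. They are 10 of the 11982 genes that the array annotation names alone for at least 1 probe set, and 11 probe sets measured them, since Cul3 had 2. The set was chosen by the higher values of Cul6 and Roc1a at 25 °C than at 20 °C, so the values by temperature describe how the set was chosen and carry no test here. No member of the set was left out, and no filter on low values was applied.

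RNA from whole ovaries of Drosophila melanogaster females was hybridised to Affymetrix Drosophila Genome 2.0 arrays, 1 sample to an array, with 3 biologically independent samples in each of 6 groups. At 20 °C the groups were RpII2154/FM7;Marcal1del/del, RpII2154/FM7, Marcal1del/del and yw, and at 25 °C they were Marcal1del/del and yw. Marcal1del/del flies are homozygous for a deletion in Marcal1, which encodes an annealing helicase of the SNF2 family whose human counterpart is SMARCAL1. RpII2154 is an allele of RpII215, which encodes the largest subunit of RNA polymerase II, and it was carried over FM7, a multiply inverted X chromosome that keeps the allele from recombining. RpII2154 and the balancer therefore always came together, and both were present only at 20 °C. The labels call 25 °C a heat stress and 20 °C untreated. The age of the flies, the number of flies per sample and whether the stocks shared a genetic background apart from the named alleles were not stated in the sources used here.

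Cullin-RING ligases are the largest family of enzymes that attach ubiquitin to proteins. A cullin forms the rigid scaffold, a small RING protein of the Roc family binds the end of the scaffold that receives the ubiquitin-loaded enzyme, and an adaptor with a substrate receptor binds the opposite end and picks the protein to be marked, often for destruction by the proteasome. Attachment of the ubiquitin-like protein Nedd8 to the cullin turns the ligase on, and the COP9 signalosome takes Nedd8 off again. In the ovary these ligases are known for their part in germline stem cell division, egg chamber growth and the ring canals that join nurse cells to the oocyte.

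All values are log2 intensities after robust multi-array averaging (RMA), so a difference of 1 is a doubling of signal. Levels were compared only within a probe set, because probe sets differ in how strongly they bind. Differences were tested with limma across all 18769 non-control probe sets, and a probe set was called at a Benjamini-Hochberg adjusted p under 0.05. The errors of differences are standard errors (SE) from that fit.

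Array medians lay between 4.07 and 4.20. Over probe sets, arrays of a group correlated at 0.986 to 0.997, and arrays of different groups at 0.981 to 0.995. Where the labels place the deletion, Marcal1 fell by 1.95 log2 units in the RpII2154/FM7 background (limma adjusted p = 8.28e-05), fell by 2.08 at 25 °C (3.65e-05) and fell by 2.07 at 20 °C (4.39e-05). Of the 5 measured germline genes, which mark ovary tissue, osk lay at 11.99 to 12.58 and orb at 10.72 to 11.34. The others read lower, with aub at 8.93 to 9.77, grk at 7.36 to 8.21 and vas at 5.43 to 6.27. In 3 groups an array stood apart on other marker lists. The eggshell list of late follicle cells averaged 8.52 on RpII2154/FM7 replicate 3, against 12.93 and 13.06 on the other arrays of that group, and in yw at 20 °C replicate 1 had 9.94, against 12.53 and 12.60. In yw at 25 °C the mean of the muscle list was 8.13 for replicate 1, against 5.70 and 6.0. The names of the arrays form 2 series, with all 6 RpII2154 arrays in one and all 12 others in the other, so series and RpII2154/FM7 cannot be told apart wherever these arrays are compared. In bulk samples of this kind, fewer cells of a type and less RNA per cell cannot be told apart either.

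Cul6 encodes one of the 6 canonical cullins of the fly. Its probe set read 7.29, 7.62 and 7.79 in Marcal1del/del at 25 °C, against 6.91, 6.11 and 6.94 in Marcal1del/del at 20 °C. In yw it read 7.23, 7.92 and 7.80 at 25 °C, against 6.13, 5.90 and 6.07 at 20 °C. Neither stock had a 20 °C array as high as its lowest 25 °C array, and replicate 2 of Marcal1del/del at 20 °C lay apart from its 2 companions, near the yw arrays. At 20 °C with the polymerase allele, Cul6 read 7.15, 6.98 and 6.99 in RpII2154/FM7;Marcal1del/del, against 6.42, 6.79 and 6.71 in RpII2154/FM7. All 6 arrays at 25 °C, from 7.23 upward, thus exceeded all 12 arrays at 20 °C, which ended at 7.15.

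**Figure D1:**
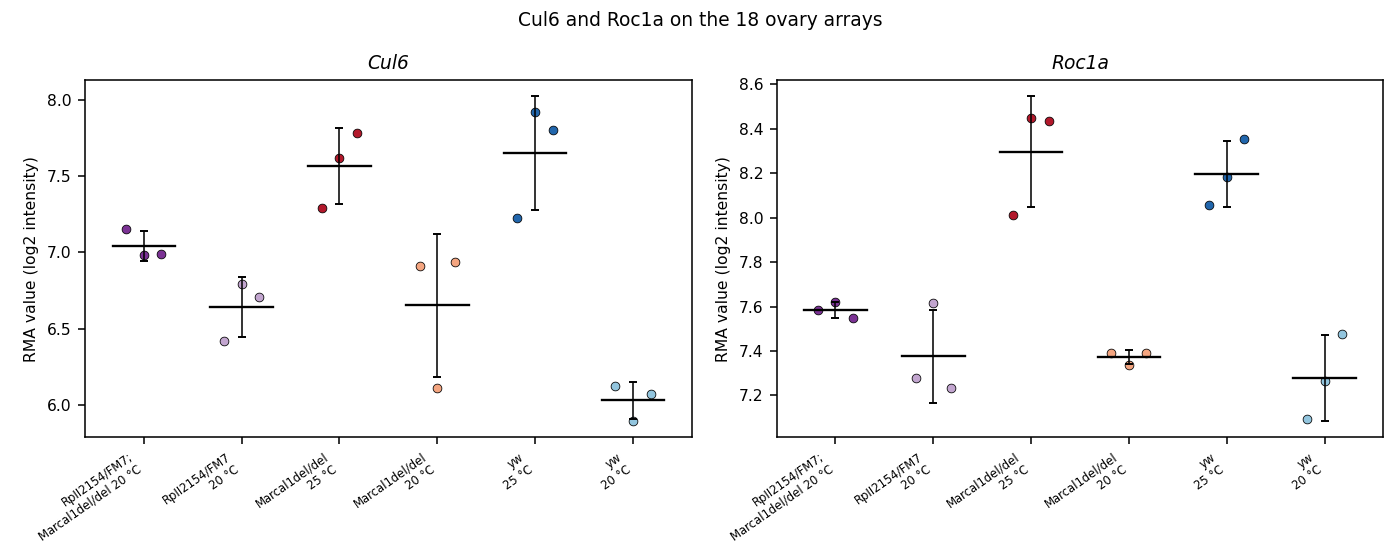
RMA log2 intensity of Cul6 (left) and Roc1a (right) on the 18 arrays by group; points are arrays, long bars are group means and whiskers are 1 SD (n = 3). The arrays at 25 °C lie above all arrays at 20 °C in both panels, with Cul6 at 7.23 to 7.92 and Roc1a at 8.01 to 8.45, and Cul6 is also spread over the groups at 20 °C.

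In order of their means, Cul6 stood at 7.65 ± 0.37 in yw at 25 °C, 7.57 ± 0.25 in Marcal1del/del at 25 °C, 7.04 ± 0.10 in RpII2154/FM7;Marcal1del/del, 6.65 ± 0.47 in Marcal1del/del at 20 °C, 6.64 ± 0.20 in RpII2154/FM7 and 6.03 ± 0.12 in yw at 20 °C (SD, n = 3 each). The arrays of neighbouring groups in this order did not overlap at 3 of the 5 steps: below the 25 °C groups, below RpII2154/FM7;Marcal1del/del and above yw at 20 °C. The 2 groups at 25 °C overlapped, as did Marcal1del/del at 20 °C and RpII2154/FM7. The 25 minus 20 °C difference was 0.91 in Marcal1del/del (1.88-fold) and 1.62 in yw (3.07-fold), which placed Cul6 at rank 54 and rank 4 among the rises of all 18769 probe sets. Without replicate 2 of Marcal1del/del at 20 °C the difference in that stock was 0.64.

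Roc1a encodes the RING protein that completes the ligases built on Cul1, among others. Its probe set read 8.01, 8.45 and 8.43 in Marcal1del/del at 25 °C, against 7.39, 7.34 and 7.39 at 20 °C. In yw it read 8.06, 8.18 and 8.35 at 25 °C, against 7.09, 7.27 and 7.48 at 20 °C. The arrays at the higher temperature lay above those at the lower one in both stocks, with close to the same gap. With the polymerase allele at 20 °C it read 7.58, 7.62 and 7.55 in RpII2154/FM7;Marcal1del/del, against 7.28, 7.61 and 7.23 in RpII2154/FM7. These 6 arrays lay within or just above the range of the other 20 °C arrays and below every 25 °C array.

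The Roc1a means ran from 8.30 ± 0.25 in Marcal1del/del at 25 °C and 8.20 ± 0.15 in yw at 25 °C to 7.58 ± 0.03 in RpII2154/FM7;Marcal1del/del, 7.38 ± 0.21 in RpII2154/FM7, 7.37 ± 0.03 in Marcal1del/del at 20 °C and 7.28 ± 0.19 in yw at 20 °C (SD, n = 3 each). Only the step between the 2 groups at 25 °C and the rest separated neighbouring groups without overlap. The 25 minus 20 °C difference was 0.92 in Marcal1del/del (1.90-fold, rank 50 of the rises) and 0.92 in yw (1.89-fold, rank 41).

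The other 9 probe sets differed far less between the temperatures. Their 25 minus 20 °C differences ran from -0.11 for Cul5 to 0.17 for Cul2 in Marcal1del/del, and from -0.05 for Cul4 to 0.31 for Cul3 in yw. In Marcal1del/del the arrays at 25 °C lay above those at 20 °C without overlap for 3 of the 11 member probe sets, Cul6, Roc1a and SkpA, where 5.15% of all probe sets did so. In yw they did for 5, with Cul3 and Roc2 added, where 6.09% of all probe sets did so. These counts come from the comparisons that chose the set, and nothing is read from them. At an adjusted p under 0.05, 0.202% of all probe sets were called between the temperatures in Marcal1del/del and 0.256% in yw.

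**Figure D2:**
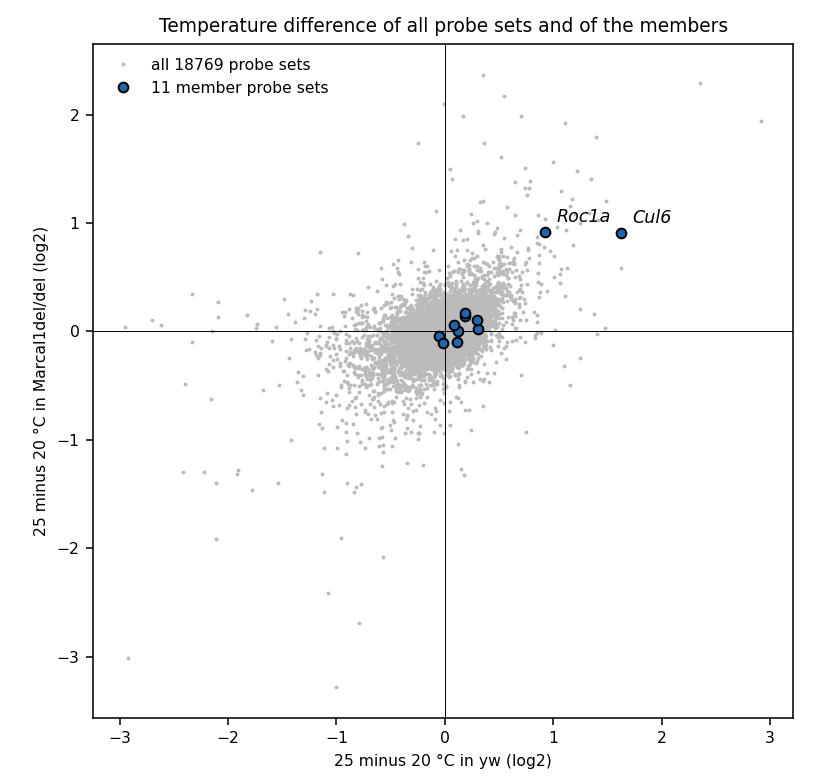
25 minus 20 °C difference (log2) in yw (horizontal axis) and in Marcal1del/del (vertical axis) for all 18769 probe sets (grey) and the 11 member probe sets (blue). Cul6 and Roc1a lie in the upper right, while the 9 other member probe sets lie between -0.11 and 0.31 on both axes.

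SkpA is the fly's main Skp1 protein, the adaptor that links Cul1 to its F-box substrate receptors. It read 12.12, 12.24 and 12.26 in Marcal1del/del at 25 °C, against 12.06, 12.05 and 12.08 at 20 °C. In yw it read 12.24, 12.31 and 12.30 at 25 °C, against 12.24, 11.95 and 12.08 at 20 °C. The gaps were small, 0.14 in Marcal1del/del and 0.19 in yw, with the lowest yw array at 25 °C only just above the highest at 20 °C. The remaining 20 °C groups lay at 12.02 to 12.07 in RpII2154/FM7;Marcal1del/del and 11.98 to 12.12 in RpII2154/FM7, within the range of the other 20 °C arrays.

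Of the 9 marker lists, 2 separated the temperatures in Marcal1del/del and 1 did so in yw. In Marcal1del/del the spermatheca list (3 genes) averaged 4.32 to 4.44 at 25 °C, against 4.66 to 6.19 at 20 °C, and the germline list (5 genes) 9.36 to 9.44, against 9.07 to 9.35. In yw the gut list (5 genes measured, 3 of them below the lowest array median on average) averaged 3.77 to 3.88 at 25 °C, against 3.90 to 4.04 at 20 °C. The GAPDH control's 3′ minus 5′ gap, larger where RNA is degraded, was 1.05 to 1.09 in yw at 25 °C, against 1.12 to 1.21 at 20 °C, and overlapped between the temperatures in Marcal1del/del. The part of these tissues and of RNA integrity in the Cul6 and Roc1a differences was not tested. The muscle and eggshell lists overlapped between temperatures. The muscle list averaged 5.36 to 7.25 in Marcal1del/del at 25 °C, against 5.78 to 6.05 at 20 °C, and 5.70 to 8.13 in yw at 25 °C, against 6.09 to 6.58 at 20 °C. The array with the highest muscle signal in each 25 °C group, replicate 1 in both, had the lowest Cul6 and the lowest Roc1a of its group. Among the 20 °C groups, such an array had the lowest Cul6 in yw and Marcal1del/del but not in either RpII2154 group. It had the lowest Roc1a in all of them except yw. The eggshell list averaged 12.70 to 13.00 in Marcal1del/del at 25 °C, against 12.35 to 13.19 at 20 °C, and 10.74 to 11.64 in yw at 25 °C, against 9.94 to 12.60 at 20 °C. In yw, leaving out replicate 1 at both temperatures gave a difference of 1.88 for Cul6 and 0.90 for Roc1a. The part of muscle and eggshell tissue in the Cul6 and Roc1a differences was not tested either.

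Whether the temperature difference itself differed between the stocks was fitted as an interaction. It was -0.71 ± 0.30 for Cul6 (SE, 95% interval -1.34 to -0.07, adjusted p = 1), with the smaller gap in Marcal1del/del, and it was not called. This value uses the same arrays as the choice of Cul6, since a low reading in yw at 20 °C enters both. For Roc1a the interaction was 0.01 ± 0.19 (95% interval -0.40 to 0.41, adjusted p = 1). It too is made from the arrays that chose Roc1a. Neither interaction, nor the place of Cul6 and Roc1a in the counts that follow, is therefore independent of the choice. Of the 11 member probe sets 0 were called and 1 had an unadjusted p under 0.05, where 0.0107% of all probe sets were called and 1.57% had such a p.

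Marcal1del/del was next set against yw at each temperature. At 25 °C the member probe sets differed by -0.09 to 0.10, and 0 were called or had an unadjusted p under 0.05, where 1.23% of all probe sets were called and 8.5% had such a p. The groups overlapped for every member probe set, while 15.8% of all probe sets separated. The arrays at 25 °C entered the choice of Cul6 and Roc1a, so the place of these genes in those counts is not independent of it. At 20 °C the differences ran from -0.08 to 0.62, 0 were called and 2 had an unadjusted p under 0.05, where 1.18% were called and 7.65% had such a p. Those 2 were Cul6, at 6.65 in Marcal1del/del against 6.03 in yw (0.62 ± 0.21 SE, adjusted p = 0.32), and the brighter Cul3 probe set, at 9.0 against 8.68 (0.31 ± 0.12, adjusted p = 0.39). For Cul6, 2 of the 3 Marcal1del/del arrays lay above yw, and replicate 2 at 6.11 lay inside the yw range. The Cul3 arrays were the only ones of a member to separate the stocks, at 8.76 to 9.22 in Marcal1del/del against 8.62 to 8.73 in yw, and 12% of all probe sets did so. Without that array the Cul6 difference was 0.89 with an adjusted p of 0.035. The low Cul6 readings in yw at 20 °C entered the choice of Cul6, so neither p nor its place in the count of 2 is independent of that choice. The muscle list also separated the stocks at 20 °C, at 5.78 to 6.05 in Marcal1del/del against 6.09 to 6.58 in yw. Its part in the Cul6 and Cul3 differences was not tested. As the mean of both temperatures, 0 of 11 were called and 0 had an unadjusted p under 0.05, where 3.38% of all probe sets were called and 12.6% had such a p. The Cul6 difference there was 0.27 ± 0.15.

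In mean values, the effect of the Marcal1 deletion in the RpII2154/FM7 background uses none of the arrays that chose the set. There, all 11 member probe sets were higher on average in RpII2154/FM7;Marcal1del/del than in RpII2154/FM7, by 0.00 to 0.40 with a median of 0.16, where 54.6% of all probe sets were higher and their median was 0.02. The limma test called 0 of them, with 2 at an unadjusted p under 0.05, where 1.88% of all probe sets were called and 18.6% had such a p. The 11 share their arrays, so their common sign is a description of 6 arrays.

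The members nearest to a call in that comparison were Cul5 and Cul2. Cul5, the scaffold that works with SOCS-box receptors, read 8.73, 8.99 and 8.70 in RpII2154/FM7;Marcal1del/del, against 8.46, 8.54 and 8.62 in RpII2154/FM7. The groups did not overlap, and the difference was 0.27 ± 0.11 (SE, adjusted p = 0.20). Cul2, the scaffold that works with the Elongin adaptors and the Vhl receptor, read 9.37, 9.59 and 9.47 in RpII2154/FM7;Marcal1del/del, against 9.17, 9.01 and 9.23 in RpII2154/FM7. These groups did not overlap either, and the difference was 0.34 ± 0.16 (adjusted p = 0.26). Cul6 differed by 0.40 ± 0.21 (adjusted p = 0.33) and Roc1a by 0.21 ± 0.13 (adjusted p = 0.43). The higher arrays lay wholly above the lower ones for 4 of the 11 probe sets, Cul2, Cul4, Cul5 and Cul6, where 13.5% of all probe sets did so. For Cul4 they did so only just, with the lowest RpII2154/FM7;Marcal1del/del array at 9.9467 and the highest RpII2154/FM7 array at 9.946. The Cul4 difference was 0.08 ± 0.09 (adjusted p = 0.68). The muscle list averaged 5.76 to 6.77 in RpII2154/FM7;Marcal1del/del, against 7.04 to 7.72 in RpII2154/FM7, the hemocyte list 5.71 to 6.04, against 6.13 to 6.61, and the testis list 3.52 to 3.55, against 3.61 to 3.66. The part of these lists in the member differences, and in those of the receptors given further on, was not tested.

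**Figure D3:**
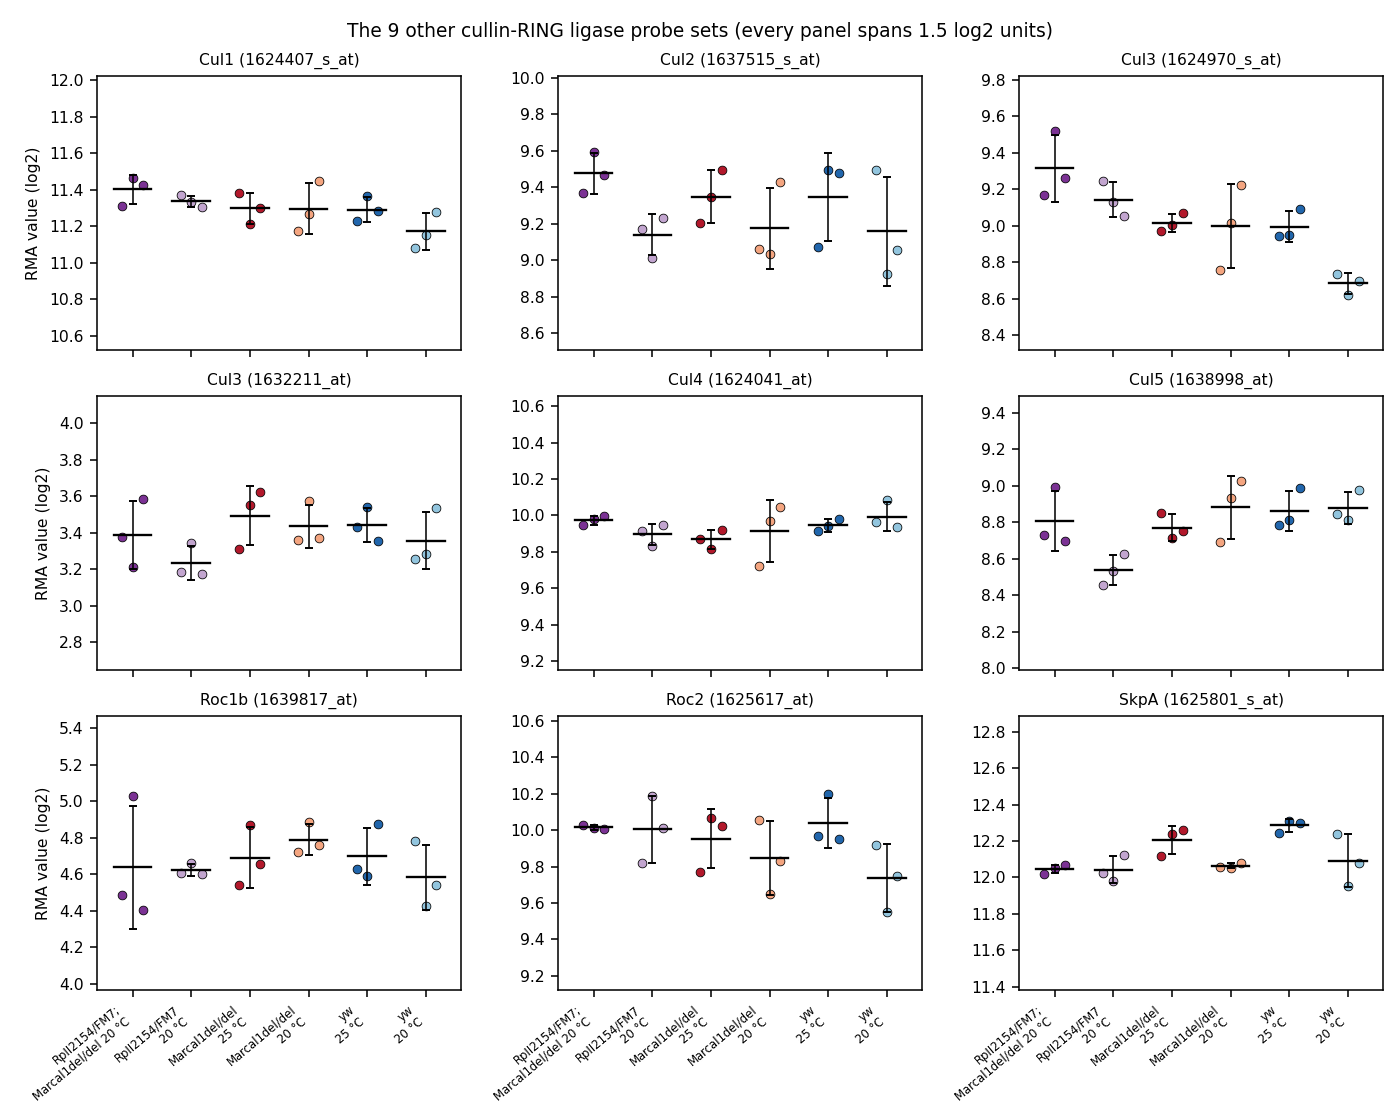
RMA log2 intensity of the 9 other member probe sets by group, each panel spanning 1.5 log2 units; points are arrays, long bars are group means and whiskers are 1 SD (n = 3). Cul3 (upper right) is lowest in yw at 20 °C, where its 3 arrays lie at 8.62 to 8.73, and Cul5 is lowest in RpII2154/FM7, at 8.46 to 8.62.

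RpII2154/FM7 was then compared with yw at 20 °C, and Cul3 gave the only call among the members. Cul3 is the scaffold for receptors with a BTB domain, among them kel, the ring canal protein of the germline. Its brighter probe set read 9.24, 9.13 and 9.05 in RpII2154/FM7, against 8.73, 8.62 and 8.70 in yw, so that every RpII2154/FM7 array lay above every yw array. The difference was 0.46 ± 0.12 (SE, 1.38-fold, 95% interval 0.21 to 0.70, adjusted p = 0.043). Thus 1 of 11 probe sets was called, where 2.76% of all probe sets were called and 1.52% were called higher. The call was lost without any single array of the 2 groups (adjusted p from 0.051 to 0.17), without the 3 arrays that stood apart (0.070) and in a fit of these 2 groups alone (0.13).

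The second Cul3 probe set did not show that difference. It lay below the array median on all 18 arrays, at 3.18 to 3.34 in RpII2154/FM7 against 3.25 to 3.53 in yw at 20 °C, with a difference of -0.12 ± 0.12 (adjusted p = 0.65). A testis form of Cul3 is known in the fly, and which transcripts each probe set detects was not stated in the sources used here. The brighter Cul3 set was also higher in RpII2154/FM7;Marcal1del/del than in Marcal1del/del at 20 °C, at 9.17, 9.52 and 9.26 against 8.76, 9.01 and 9.22, but the groups overlapped and the difference of 0.32 ± 0.12 was not called (adjusted p = 0.14). yw at 20 °C stood lowest of all 6 groups for this probe set, with no overlap with the next group, yw at 25 °C, at 8.94, 8.95 and 9.09.

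Other measures also separated the RpII2154/FM7 arrays from the yw arrays at 20 °C. The muscle list averaged 7.04 to 7.72 on the RpII2154/FM7 arrays, against 6.09 to 6.58 in yw at 20 °C, with 3 of its 13 measured genes below the lowest array median on average. The hemocyte list averaged 6.13 to 6.61, against 5.87 to 6.12, with 3 of 11 genes below that median. The GAPDH 3′ minus 5′ gap was 1.32 to 1.59, against 1.12 to 1.21, and that of the actin control 1.26 to 1.56, against 0.90 to 1.04. The germline list averaged 9.37 to 9.54, against 9.20 to 9.28, and the testis list 3.61 to 3.66, against 3.41 to 3.55. The part of muscle, hemocytes, germline, testis transcripts and RNA integrity in the Cul3 difference was not tested, and the array series cannot be told apart from the genotype.

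A further 2 members had an unadjusted p under 0.05 between RpII2154/FM7 and yw without being called. Cul5 read 8.46, 8.54 and 8.62 in RpII2154/FM7, against 8.85, 8.81 and 8.98 in yw at 20 °C, a difference of -0.34 ± 0.11 (adjusted p = 0.11). Cul6 read 6.42 to 6.79, against 5.90 to 6.13, a difference of 0.61 ± 0.21 (adjusted p = 0.14). The yw arrays at 20 °C entered the choice of Cul6, so this p and the place of Cul6 in the counts that follow are not independent of it. Neither pair of groups overlapped, and such separation was seen for 4 of the 11 member probe sets (Cul1, Cul3, Cul5 and Cul6) and for 19.6% of all probe sets. In all 3 had an unadjusted p under 0.05, where 17.2% of all probe sets did. With arrays weighted by their quality, Cul5 was called too (-0.41, adjusted p = 0.028).

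**Figure D4:**
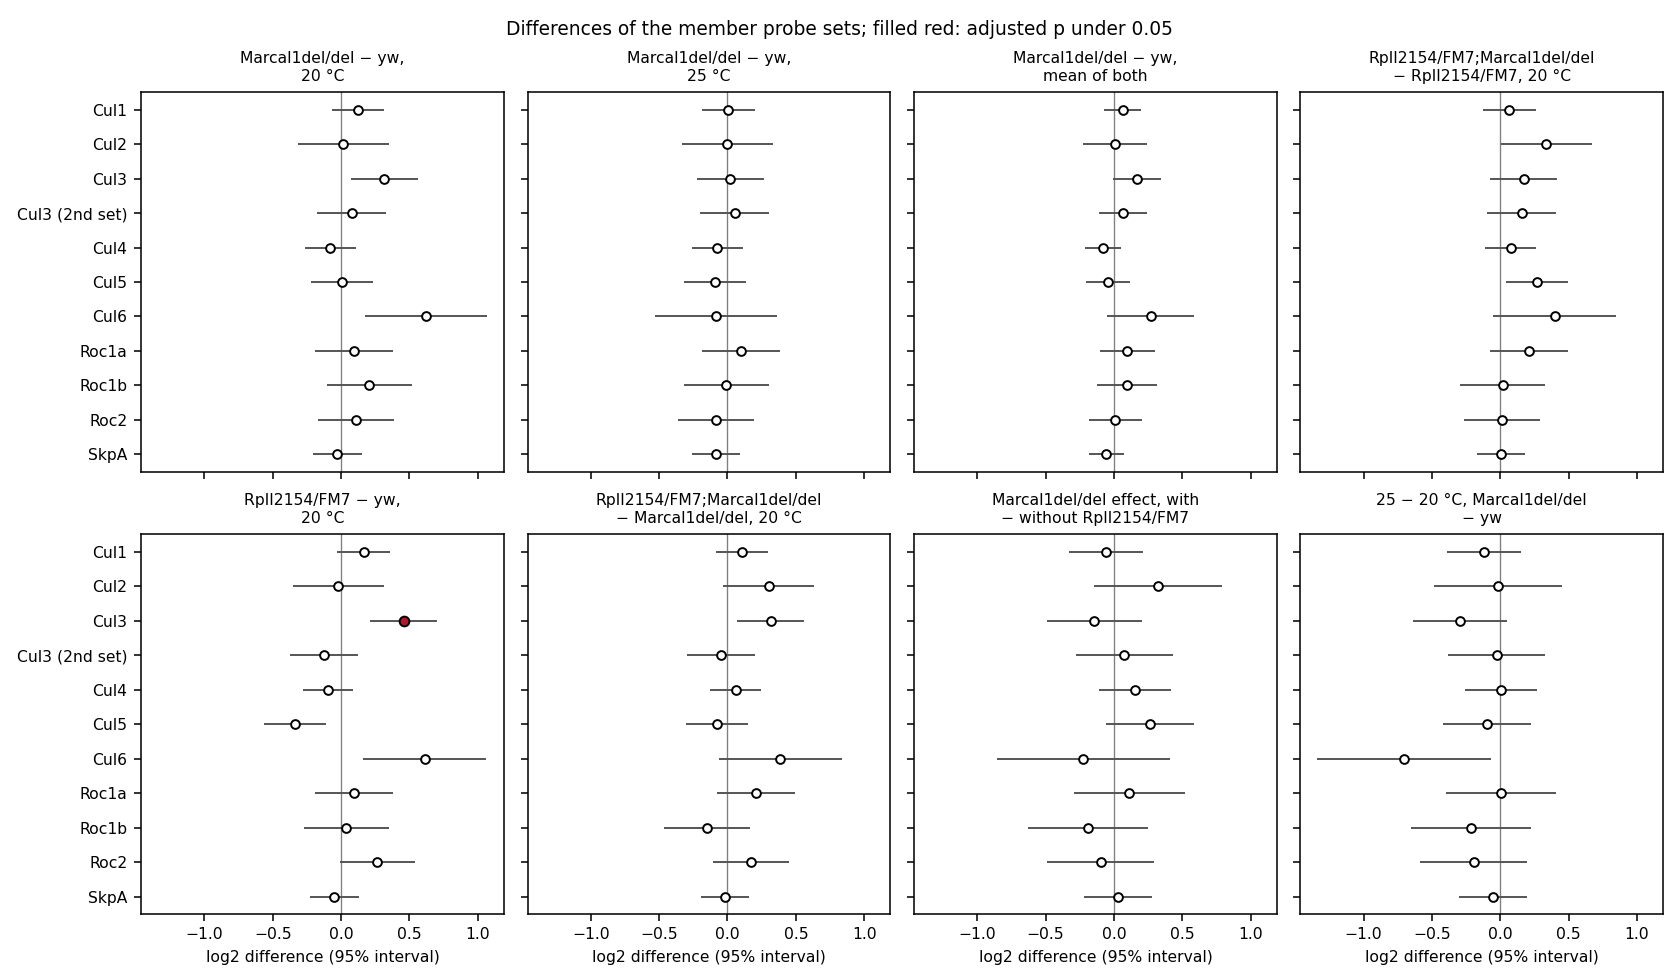
Differences (log2, horizontal axes) of the 11 member probe sets in the 8 tested comparisons, with 95% intervals from limma; the first-named group minus the second in each panel title. The single filled red point is Cul3 in RpII2154/FM7 minus yw (0.46), and the widest intervals belong to Cul6 and Cul2.

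In Marcal1del/del flies at 20 °C the presence of RpII2154/FM7 left 0 of 11 member probe sets called and 1, Cul3, at an unadjusted p under 0.05, where 3.85% of all probe sets were called and 20% had such a p. Cul6 read 6.98 to 7.15 in RpII2154/FM7;Marcal1del/del, against 6.11 to 6.94 in Marcal1del/del, and Roc1a read 7.55 to 7.62, against 7.34 to 7.39. These were the 2 member probe sets whose groups did not overlap, where 25.2% of all probe sets separated. The Cul6 difference was 0.39 ± 0.21 (adjusted p = 0.32) and the Roc1a difference 0.21 ± 0.13 (adjusted p = 0.41). The eggshell, fat body and gut lists and the actin control's 3′ minus 5′ gap, given further on, also separated these groups. Their part in the member differences was not tested. The Marcal1del/del arrays at 20 °C entered the choice of Cul6 and Roc1a. Their p values here, and their separation of the groups, are therefore not independent of that choice. The difference between the effects of the Marcal1 deletion with and without RpII2154/FM7 was called for 0 of 11, with 0 at an unadjusted p under 0.05, where 0.97% of all probe sets were called and 10.7% had such a p.

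The members not yet described stayed within narrow ranges. Cul1, the scaffold of the SCF ligases, lay between 11.08 and 11.46 on all 18 arrays, and its group means spanned 0.23. Cul4, which uses pic (the fly DDB1) to hold its receptors, lay between 9.72 and 10.08, with means spanning 0.12. Roc2, the RING partner of Cul5, lay between 9.55 and 10.20, with means spanning 0.30, and Roc1b, a RING protein known from work with Cul3 in sperm development, between 4.40 and 5.03, with means spanning 0.21. For Cul1, Cul4, Roc1b and Roc2, no neighbouring groups in the order of the means were free of overlap. The group means spanned 1.62 for Cul6 and 1.02 for Roc1a, against within-group SDs of 0.28 and 0.17.

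The Roc1b probe set was not far above the array medians, and the testis list was low throughout. That list averaged 3.37 to 3.68 on the 18 arrays, with 14 of its 16 genes below the lowest array median. The fly genome holds close relatives of Roc1a and SkpA, and whether their probes also bind those transcripts was not stated in the sources used here.

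Of 64 other genes listed for the ubiquitin ligase pathway, 55 were measured. They comprised 6 adaptors, 20 substrate receptors, 17 genes of the Nedd8 cycle and its regulators, and 12 subunits of the anaphase-promoting complex (APC/C, a relative of the cullin ligases) with ubiquitin-conjugating enzymes. Between the temperatures 0 of the 55 were called in either stock by limma, with 2 at an unadjusted p under 0.05 in Marcal1del/del and 5 in yw, where 5.13% and 9.25% of all 11982 genes had such a p and 0.292% and 0.376% were called. Their differences lay between -0.21 and 0.30 in Marcal1del/del and between -0.38 and 0.41 in yw.

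Between the genotypes the calls fell among substrate receptors and 1 adaptor. Fbxl4, an F-box gene, rose in Marcal1del/del at 20 °C, where it read 7.94, 7.87 and 8.12, against 7.47, 7.16 and 7.10 in yw (0.73 ± 0.14 SE, adjusted p = 0.0096). As the mean of both temperatures it was higher by 0.60 ± 0.10 (adjusted p = 0.0013). The call at 20 °C was lost without yw replicate 2 (adjusted p = 0.059) or 3 (0.070) or Marcal1del/del replicate 3 (0.064), and in a fit of these groups alone (0.073), while that of the mean was kept under all 20 alternatives. The muscle list averaged 5.78 to 6.05 on the Marcal1del/del arrays, against 6.09 to 6.58 in yw at 20 °C, and its part was not tested. At 25 °C, which also enters the mean, the eggshell list averaged 12.70 to 13.00 in Marcal1del/del, against 10.74 to 11.64 in yw, and the GAPDH 3′ minus 5′ gap was 1.17 to 1.25, against 1.05 to 1.09. The germline list lay just apart there, at 9.365 to 9.435, against 9.046 to 9.364. The part of these in the Fbxl4 difference was not tested either. Fbxl4 was the 1 of 55 genes called in each of these comparisons, where 1.46% and 4.15% of all genes were called. At 25 °C 0 of 55 were called and 4 had an unadjusted p under 0.05, where 1.55% and 10% of all genes did.

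In the RpII2154/FM7 background, the receptors ntc and l(2)dtl rose with the Marcal1 deletion, 2 of 55 genes where 2.27% of all genes were called. The F-box gene ntc, known for activating caspases in spermatids, read 8.47, 8.40 and 8.33 in RpII2154/FM7;Marcal1del/del, against 7.31, 7.69 and 7.60 in RpII2154/FM7 (0.87 ± 0.12, adjusted p = 0.0012). The gene l(2)dtl, the Cul4 receptor that removes the replication licensing factor Cdt1, read 9.20, 9.21 and 9.42, against 8.65, 8.60 and 8.74 (0.61 ± 0.14, adjusted p = 0.038). Both pairs of groups were free of overlap. The ntc call was kept under all 14 alternatives, while that of l(2)dtl was lost without any single array of the 2 groups (adjusted p from 0.056 to 0.11), with array weights (0.080) and with only these groups (0.063).

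The remaining calls set groups with RpII2154/FM7 against groups without it, where the array series cannot be told apart from the genotype. Keap1, the Cul3 receptor that senses oxidative stress, rose in RpII2154/FM7, at 6.73 ± 0.02 against 6.30 ± 0.18 in yw (SD, n = 3 each, difference 0.43 ± 0.11 SE, adjusted p = 0.043), 1 of 55 genes where 3.23% of all genes were called. In RpII2154/FM7;Marcal1del/del against Marcal1del/del 4 of 55 were called, where 4.56% of all genes were. There ntc rose by 0.56 ± 0.12 (adjusted p = 0.019), and the Skp1 relative SkpD rose by 0.54 ± 0.13 (adjusted p = 0.028), with a level of 3.07 against 2.53, below every array median. Fbxl4 fell by 0.58 ± 0.14 (adjusted p = 0.025) and the SOCS-box gene Socs44A fell by 0.36 ± 0.10 (adjusted p = 0.049). The eggshell list averaged 10.47 to 11.50 in RpII2154/FM7;Marcal1del/del, against 12.35 to 13.19 in Marcal1del/del, the fat body list 8.10 to 8.33, against 8.65 to 9.38, and the gut list 3.65 to 3.75, against 3.86 to 3.97. The 3′ minus 5′ gap of the actin control was 1.48 to 2.04, against 0.95 to 1.23. The part of these lists and of RNA integrity in the 4 calls was not tested. None of these calls withstood every array left out in turn. The Keap1 call was lost without each array of its groups except yw replicate 1 (adjusted p from 0.084 to 0.20), with quantile normalization (0.16), an intensity trend (0.094) and without the 3 arrays that stood apart (0.052), and the Socs44A call without each array of its groups (0.071 to 0.16). Of the Marcal1del/del arrays, the SkpD call was lost without replicate 1 (0.083) or 2 (0.11), that of ntc without replicate 2 (0.10) and that of Fbxl4 without replicate 1 (0.059) or 3 (0.081). Of the RpII2154/FM7;Marcal1del/del arrays, the SkpD call was lost without replicate 2 (0.11) or 3 (0.088), that of ntc without replicate 1 (0.070) or 2 (0.057) and that of Fbxl4 without replicate 1 (0.086) or 2 (0.070). In a fit of only the 2 groups compared, the calls of Keap1 (0.20), Socs44A (0.12), SkpD (0.10) and ntc (0.071) were lost, and with arrays shifted to a common median those of Socs44A (0.077) and Fbxl4 (0.057) were lost.

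**Figure D5:**
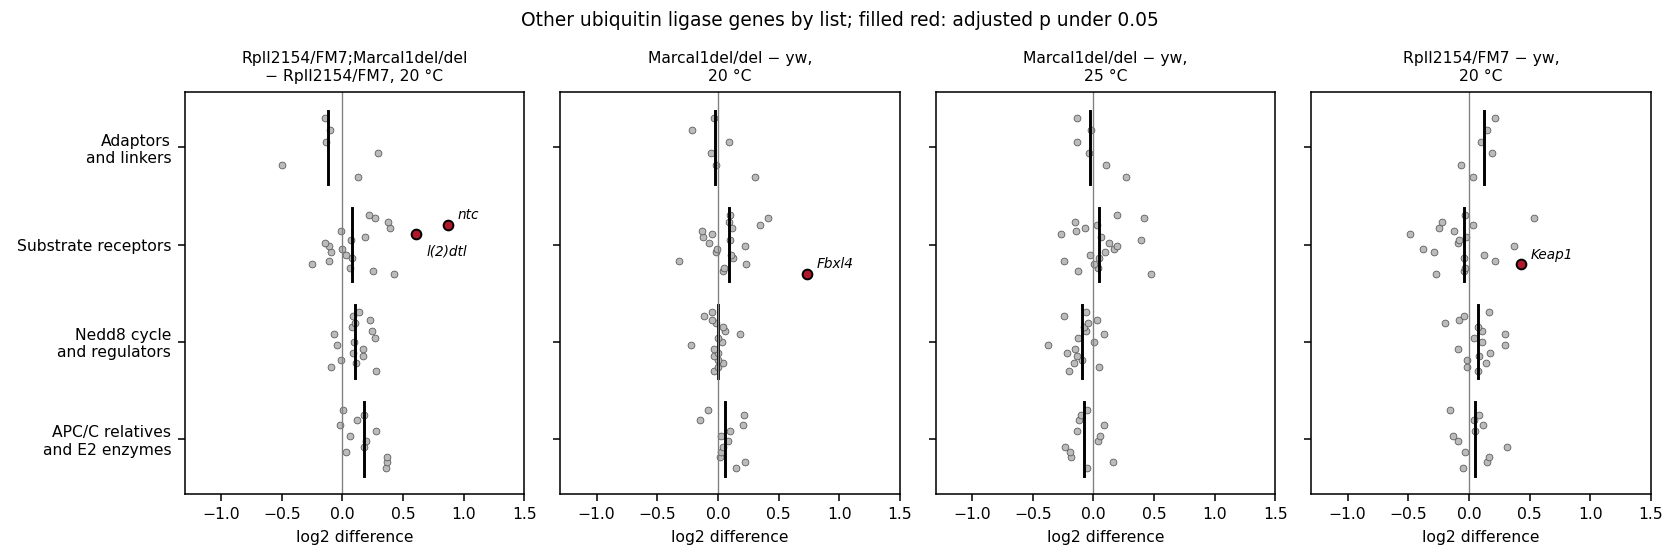
Differences (log2, horizontal axes) of the 55 other ubiquitin ligase genes in 4 comparisons, by list; points are genes, short vertical bars are list medians and filled red points have an adjusted p under 0.05. The calls are ntc (0.87) and l(2)dtl (0.61) in the first panel, Fbxl4 (0.73) in the second and Keap1 (0.43) in the fourth, all among the substrate receptors.

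The Nedd8 and APC/C lists had 0 genes called in the genotype comparisons. Of all 55 genes, 0 were called for the difference of the Marcal1 deletion's effect with and without RpII2154/FM7 (4 at an unadjusted p under 0.05), and 0 for the difference of the temperature effect between the stocks (0 at such a p). Among all genes 1.17% and 0.0167% were called, and 11.9% and 1.73% had an unadjusted p under 0.05. In RpII2154/FM7;Marcal1del/del against Marcal1del/del, the Nedd8 list had a median difference of 0.19 and 5 of 17 genes at an unadjusted p under 0.05, and the APC/C list had a median of 0.11 and 4 of 12. The median of all genes there was 0.04, and 21.7% of all genes had such a p. In RpII2154/FM7;Marcal1del/del against RpII2154/FM7 the medians were 0.11 and 0.18, against 0.03 for all genes, with 2 of 17 and 3 of 12 genes at an unadjusted p under 0.05, where 20.8% of all genes had such a p.

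The genes whose levels ran most like those of Cul6 and Roc1a over the 18 arrays were sought among 7449 named genes by Pearson correlation. The points share the stock and temperature differences described above, so the coefficients are given with those within the 12 arrays at 20 °C. Nearest to Cul6 were GstD9, a glutathione S-transferase gene (0.95, and 0.90 at 20 °C), CG4496 (0.91 and 0.83), the acid phosphatase gene Acph-1 (0.90 and 0.74), zuc, the nuclease gene of the piRNA pathway (0.89 and 0.81), and CkIIalpha-i3 (0.89 and 0.79). Within the 6 arrays at 25 °C these 5 correlated with Cul6 at 0.74 to 0.97. Roc1a stood at place 10 in the order of likeness to Cul6 (0.87, and 0.63 at 20 °C).

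Nearest to Roc1a were the inositol phosphatase gene 5PtaseI (0.91, and 0.45 at 20 °C), the claudin gene kune (0.89 and 0.54), Cul6 (0.87 and 0.63), CG12520 (0.87 and 0.80) and MCTS1, a translation reinitiation factor gene (0.85 and 0.30). All 5 coefficients were lower within the 20 °C arrays, and 3 of the 5 were under 0.6 there. SkpA correlated with Cul6 at 0.65 over all arrays, -0.10 at 20 °C and 0.75 at 25 °C. With Roc1a it correlated at 0.68 over all arrays, -0.53 at 20 °C and 0.49 at 25 °C. Roc2 correlated with Cul6 at 0.66 over all arrays, 0.78 at 20 °C and 0.70 at 25 °C. The remaining members correlated with Cul6 over all arrays at -0.27 for Cul4 to 0.56 for Cul2.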

How the data were processed

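Ovary RNA was measured on 18 Affymetrix arrays. Per the submitters' processing notes, the deposited log2 values were made by the authors with RMA, which brings arrays to a common distribution, so a shift of most transcripts cannot appear. The RMA version and probe set definitions were not stated in the sources used here. Of 18952 probe sets, 183 controls were set aside. The platform annotation named 1 gene for 13647 probe sets, several for 402 and none for 4720. A gene outside the set was represented by its probe set with the highest mean. Symbols and chromosome order came from the NCBI annotation of Release 6, and no coordinates are given because the build behind the array annotation is unknown.

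Groups followed the titles. For RpII2154/FM7, the genotype entries of replicates 2 and 3 read FM8 and FM9, not FM7. Differences were fitted with limma 3.58.1 (R 4.3.3), using every array and a term for group. The fit had 12 residual and 3.85 prior degrees of freedom (2-sided, Benjamini-Hochberg over 18769 probe sets per comparison). The procedure was run on simulated data with independent noise, which did not hold the array differences described above. The 3 arrays per group limit the precision. Alternatives were a filter on group means of at least 5, other array scalings, an intensity trend, array weights estimated gene by gene, a replicate block, fewer groups, and arrays left out.

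The members, gene lists, tests and alternatives were chosen with earlier results of these data known. Named were all members, called genes of the 4 pathway lists (up to 4 per list and comparison), and the 5 genes most like Cul6 and Roc1a among named genes with a mean above the median of all probe sets.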

Additional observations from a re-analysis of the deposited data

How the results depend on the processing

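Over 31 single-gene results, 468 values under alternatives gave 398 with the same direction and side of the threshold, 55 no longer past it, 2 newly past it and 13 of the opposite sign. Equal replicate numbers did not pair the arrays (deviations of same-numbered arrays correlated at -0.33 to 0.47), and with a replicate block the number of member probe sets called in RpII2154/FM7 minus yw was 0, the Cul3 adjusted p being 0.063. That number was 2 with array weights, 0 without the 3 arrays that stood apart, 0 with only the groups of the comparison and 0 with any 1 array left out. In Marcal1del/del minus yw at 20 °C it was 0 to 1 with 1 array left out. Opposite signs came with values near 0: Roc1a in Marcal1del/del minus yw at 20 °C with array weights (-0.037), Roc1a in RpII2154/FM7 minus yw with quantile normalization (-0.0017), array weights (-0.032) and 1 array left out (-0.023 to 0.196), the Roc1a temperature interaction with a common median (-0.0019) and 1 array left out (-0.094 to 0.148), and Cul6 in Marcal1del/del minus yw at 25 °C with 1 array left out (-0.296 to 0.0529). With array weights, all probe sets called numbered 557 and 890 in Marcal1del/del minus yw at 20 and 25 °C, 1507 as their mean, 213 in RpII2154/FM7;Marcal1del/del minus RpII2154/FM7, 1174 in RpII2154/FM7 minus yw, 6 in the temperature interaction, and 159 and 1686 in 25 minus 20 °C in Marcal1del/del and yw. Without the 3 arrays that stood apart, the calls were 385 for Marcal1del/del minus yw at 20 °C, 366 for the same at 25 °C, 743 for RpII2154/FM7;Marcal1del/del minus RpII2154/FM7, 349 for the interaction with RpII2154/FM7, 13 for the temperature interaction and 788 for 25 minus 20 °C in yw. With only the groups of a comparison, they were 134 for Marcal1del/del minus yw at 20 °C, 153 for RpII2154/FM7;Marcal1del/del minus RpII2154/FM7, 137 for RpII2154/FM7 minus yw, and 16 and 2 for 25 minus 20 °C in Marcal1del/del and yw. With the filter on means, 90 were called in 25 minus 20 °C in yw. With 1 array left out, the calls ranged from 127 to 246 and 125 to 215 for Marcal1del/del minus yw at 20 and 25 °C, from 146 to 362 for RpII2154/FM7;Marcal1del/del minus RpII2154/FM7, from 199 to 837 for RpII2154/FM7 minus yw (837 without yw replicate 1), from 333 to 582 for RpII2154/FM7;Marcal1del/del minus Marcal1del/del, from 128 to 306 for the interaction with RpII2154/FM7 (306 without RpII2154/FM7 replicate 3), and from 10 to 32 and 23 to 146 for 25 minus 20 °C in Marcal1del/del and yw (146 without yw replicate 1 at 25 °C). SkpD did not pass the filter on means and has no value there. The calls of l(2)dtl, Keap1 and Socs44A were lost with the replicate block too (adjusted p = 0.062, 0.069 and 0.063). The causes were not tested. The number of arrays and, for the dimmer Cul3 probe set, a signal below the array median limit the precision.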

Other observations

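The annotated neighbours of Cul6 and Roc1a were read for the same temperature gap, taking the 3 nearest measured genes on each side in Release 6. On arm 3L, around Cul6, the pseudogene CR14117, whose span overlaps that of Cul6, was lower at 25 than at 20 °C by 0.06 in Marcal1del/del and 0.35 in yw, and CG11263 was lower by 0.89 and 0.59. MICAL-like, on the other side, differed by -0.03 and 0.05. By limma 0 of these 6 genes were called in either stock, with 1 at an unadjusted p under 0.05 in Marcal1del/del and 3 in yw, where 0.292% and 0.376% of all genes were called and 5.13% and 9.25% had such a p.

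On the X chromosome, Hmt4-20, a histone methyltransferase gene, lies between Roc1a and SkpA, and its span overlaps that of Roc1a. It differed by 0.01 in Marcal1del/del and -0.04 in yw between 25 and 20 °C, while SkpA, itself 1 of the 10 genes, differed by 0.14 and 0.19. Of the 5 neighbours of Roc1a outside the set, 0 were called in either stock and 0 had an unadjusted p under 0.05, which with so few genes is near the same shares of all genes. The other members lie apart, with 2 on arm 2L, 3 on 2R, 1 on 3R and Roc1b on 3L.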
